A study of Drosophila melanogaster with 4 samples.

Results

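Transcripts of 10 Drosophila melanogaster genes that write, read, recruit or remove methylation of histone H3 at lysine K27 were compared between flies fed glucose and flies fed galactose. The genes were taken by name and matched through their FlyBase identifiers: the methyltransferase gene E(z), its complex partners Su(z)12, esc, escl, Caf1-55, Pcl and Jarid2, the DNA-binding recruiter pho, the reader Pc and the demethylase gene Utx. All 10 were found among the 17628 identifiers of the count table, and all 10 passed the filter on low counts. Poly-A RNA had been sequenced from whole flies of the Oregon strain, 5 days old, with 2 libraries per sugar and no other treatment or allele in either group. The labels give no sex, no batch and no statement that the 2 libraries of a sugar came from separate cultures, so the p-values cover the differences among these libraries alone, and those may be technical in origin. Total counts were between 21147212 and 25497099 per library. The series title names hormesis across generations and inherited resistance to aging. The comparison asks whether transcripts of this machinery differed with the sugar.

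Polycomb repressive complex 2 (PRC2) places methyl groups on H3K27, and its trimethylated form marks genes that stay silent through cell division. E(z) carries the catalytic domain. Su(z)12 and a WD40 protein of the Esc family complete the active core, Caf1-55 contacts the nucleosome, and Pcl and Jarid2 define alternative forms of the complex. The zinc-finger protein Pho binds Polycomb response elements (PREs), Pc binds the finished mark through its chromodomain as part of PRC1, and Utx removes the mark within a COMPASS-like complex. In flies the system is best known for keeping homeotic genes silent outside their own segments, and PRC2 is also active in the ovary.

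All 10 genes had a higher mean level on galactose, by 1.19-fold (escl) to 1.98-fold (pho), and none of these differences passed the test. A log2 fold change above 0 was found for 46.9% of the 12529 genes tested. The median log2 fold change of the 10 genes, galactose over glucose, was 0.55, beside -0.04 over all genes tested. By edgeR's quasi-likelihood test 0 of the 10 genes passed an adjusted p of 0.05, with adjusted p between 0.582 and 0.876, and 0 of the 12529 genes did (0% called; the smallest adjusted p was 0.541). DESeq2 also called 0 of the 10, beside 0.685% of the 12844 genes with a DESeq2 adjusted p. Limma-voom called 0 of the 10 and 0 of the 12529 genes. At an unadjusted p under 0.05, Pcl and Utx were counted, 2 of 10 beside 8.24% of all genes in either direction and 3.08% in the direction of higher values. Both galactose libraries lay above both glucose libraries for 5 of the 10, namely E(z), Caf1-55, Pcl, pho and Utx, beside 18.8% of all genes, and below them for 0 of the 10, beside 23.4%. With fewer libraries such separation is more frequent over all genes: all remaining galactose libraries lay above the glucose libraries for 10 of the 10 without glucose replicate 2 (37% of all genes) or galactose replicate 1 (33.7%), and for 5 of the 10 without glucose replicate 1 (39.5%) or galactose replicate 2 (29.3%). In bulk RNA from whole flies, a change in the number of cells that express a gene and a change in RNA per cell cannot be told apart.

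**Figure D1:**
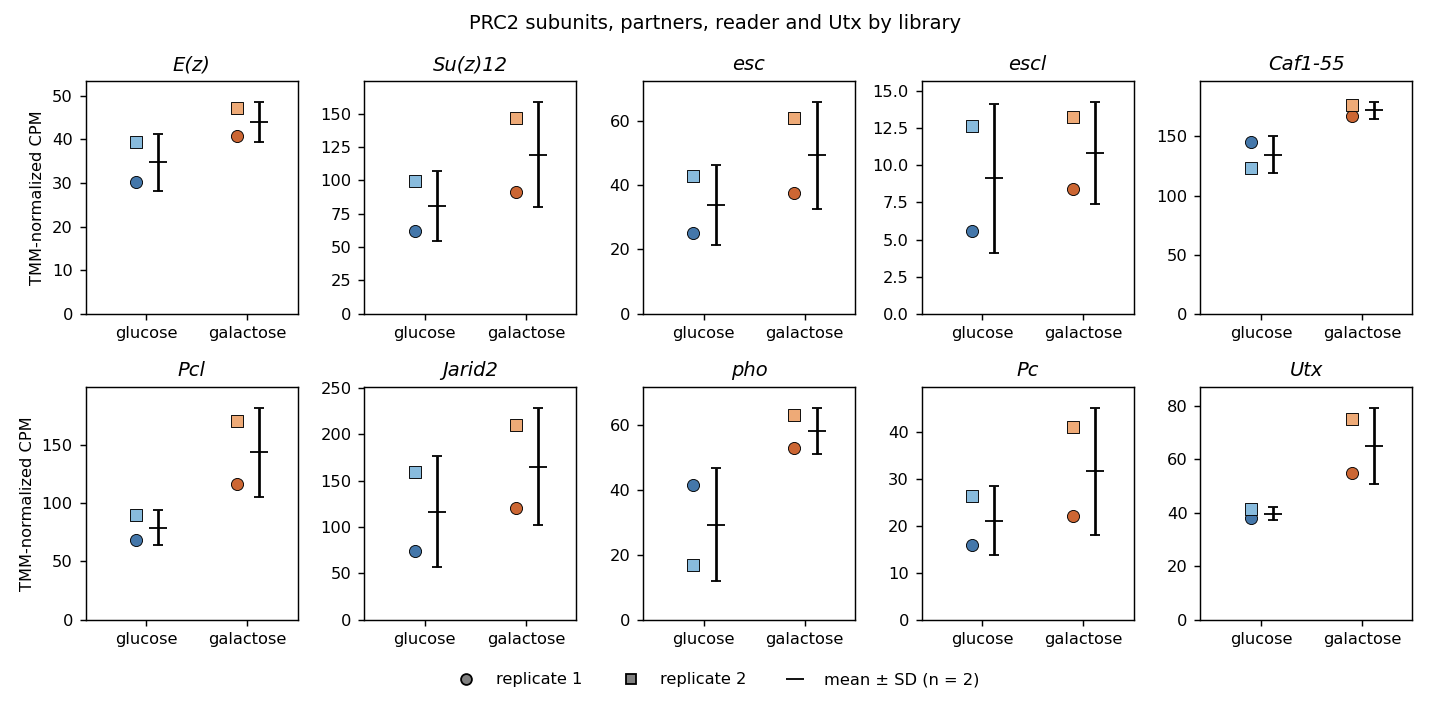
Read counts scaled to a common library total with TMM normalization (CPM, vertical axes, each from 0) of the 10 genes in the glucose and galactose libraries. Circles are replicate 1, squares replicate 2, and bars the mean ± SD of 2 libraries. Galactose replicate 2 is the highest library for all 10 genes, and the sugars do not overlap for E(z), Caf1-55, Pcl, pho and Utx.

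CPM are read counts scaled to a common library total after TMM normalization, and each pair of values below is replicates 1 and 2 of a sugar. E(z), the methyltransferase (FBgn0000629, chromosome arm 3L, 10634575 to 10638130, minus strand, assembly BDGP6.54), was at 30.1 and 39.4 CPM in glucose replicates 1 and 2 and at 40.8 and 47.2 CPM in galactose replicates 1 and 2. Both galactose libraries were higher, though galactose replicate 1 exceeded glucose replicate 2 by only 3.75%. On average it was at 34.7 ± 6.54 CPM with glucose and 44.0 ± 4.51 with galactose (SD, n = 2). The difference had a log2 value of 0.34 ± 0.27 (SE; edgeR adjusted p = 0.721).

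Su(z)12, a core subunit needed for methyltransferase activity (FBgn0020887, 3L, 19918242 to 19923462), was at 62.2 and 99.5 CPM on glucose and 91.4 and 147.2 CPM on galactose. Glucose replicate 2 lay above galactose replicate 1, so the sugars overlapped. Its log2 fold change was 0.56 ± 0.35 (SE; edgeR adjusted p = 0.661).

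The Esc family has a pair of genes in the fly, esc and escl, whose products recognise trimethylated H3K27 and stimulate the complex. Of these esc (FBgn0000588, 2L, 11827204 to 11829405) was at 25.2 and 42.8 CPM on glucose and 37.6 and 61.02 CPM on galactose, with a difference of 0.54 ± 0.37 on the log2 scale (SE). Its paralog escl (FBgn0032391, 2L, 11990927 to 11992848) was the lowest of the 10 genes, at 5.57 and 12.7 CPM on glucose and 8.38 and 13.3 CPM on galactose, with a log2 value of 0.25 ± 0.48. Both genes had glucose replicate 2 above galactose replicate 1, and neither passed (edgeR adjusted p = 0.687 and 0.876). Per kilobase of exon, esc exceeded escl in every library, by 4.80- and 3.58-fold on glucose and 4.76- and 4.89-fold on galactose. The escl count is uncertain to the extent that 53 bases of its exons (2.93%) also belong to the gene dgt2.

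Caf1-55, a histone-binding protein that PRC2 shares with other chromatin complexes (FBgn0263979, 3R, 15225576 to 15227564), was at 145.7 and 123.4 CPM on glucose and 167.2 and 177.0 CPM on galactose. Both galactose libraries were higher, by at least 14.7% over the higher glucose library, with a log2 fold change of 0.35 ± 0.24 (SE; edgeR adjusted p = 0.685).

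Among the accessory subunits, Pcl, which binds chromatin and promotes high levels of trimethylation (FBgn0003044, 2R, 18135426 to 18139990), was at 68.2 and 89.4 CPM on glucose and 116.6 and 170.1 CPM on galactose. Its lower galactose library stood 30.5% above its higher glucose library. The means were 78.8 ± 15.02 CPM (SD, n = 2 for each sugar) and 143.4 ± 37.8, a 1.82-fold difference with a log2 value of 0.86 ± 0.30 (SE; edgeR unadjusted p = 0.0236, adjusted p = 0.582). Jarid2, the subunit of the alternative form (FBgn0036004, 3L, 9477038 to 9486530), spread more within a sugar than between sugars. It was at 74.1 and 159.0 CPM on glucose and 120.7 and 209.4 CPM on galactose, with a log2 fold change of 0.50 ± 0.43 (edgeR adjusted p = 0.739).

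The reader gene Pc (FBgn0003042, 3L, 21306138 to 21318020) was at 15.9 and 26.4 CPM on glucose and 22.1 and 41.07 CPM on galactose. The sugars overlapped, with glucose replicate 2 above galactose replicate 1, and the log2 fold change was 0.58 ± 0.40 (SE; edgeR adjusted p = 0.688).

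Utx, the H3K27 demethylase (FBgn0260749, 2L, 10272325 to 10278811), had the closest pair of glucose libraries, at 38.07 and 41.5 CPM, and stood at 54.95 and 75.0 CPM on galactose. The lower galactose library exceeded the higher glucose library by 32.6%. Mean levels were 39.8 ± 2.39 CPM with glucose and 65.0 ± 14.2 with galactose (SD, n = 2), a 1.63-fold difference with a log2 value of 0.71 ± 0.27 (SE; edgeR unadjusted p = 0.0367, adjusted p = 0.601). In the authors' deposited table, turned to galactose over glucose, the log2 fold change was 0.60 for Utx, 0.71 for Pcl and 0.76 for pho. The authors' adjusted p were 0.494, 0.347 and 0.35. These log2 values are smaller than the ratios of the authors' own mean counts, so they are not on the scale of the edgeR values. The means on glucose and galactose were 912.0 and 1547 for Utx, 1812 and 3416 for Pcl, and 664.1 and 1383 for pho. The authors' deposited table gives the other 7 genes adjusted p between 0.709 and 0.903.

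The PRE-binding gene pho (FBgn0002521, chromosome 4, 1172469 to 1181628) had its lowest library in glucose replicate 2, as Caf1-55 did. It was at 41.7 CPM in glucose replicate 1 but 17.0 in glucose replicate 2, and at 53.1 and 63.1 CPM on galactose. Both galactose libraries lay above both glucose libraries, by at least 27.3%, and the log2 fold change was 0.98 ± 0.43 (SE; edgeR unadjusted p = 0.0561, adjusted p = 0.607). Without glucose replicate 1, where glucose replicate 2 stands alone for its sugar, pho passed edgeR's test with a log2 fold change of 1.77 (adjusted p = 0.0038), and 4.31% of the 12742 genes then tested passed, 1.56% in the direction of higher values on galactose. Without glucose replicate 2 its log2 fold change was 0.48.

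The low pho count in glucose replicate 2 was shared by other genes of its chromosome. Of the 85 tested genes on chromosome 4, the small and largely heterochromatic autosome, 73 (85.9%) were lowest in glucose replicate 2, against 27.7% to 33.9% of the genes on each of the other chromosome arms. Their median deviation from each gene's own mean was -0.63 (log2) in glucose replicate 2, 0.14 in glucose replicate 1 and 0.33 and 0.12 in galactose replicates 1 and 2. The medians of the other arms lay between -0.07 and 0.13 in every library. The deviation of pho in glucose replicate 2 was -1.20, farther from 0 than that of its chromosome. The part of this chromosome-wide difference in the value of pho was not tested. None of the other 9 genes is on chromosome 4. The comparison by chromosome was chosen after the value of pho was seen.

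**Figure D2:**
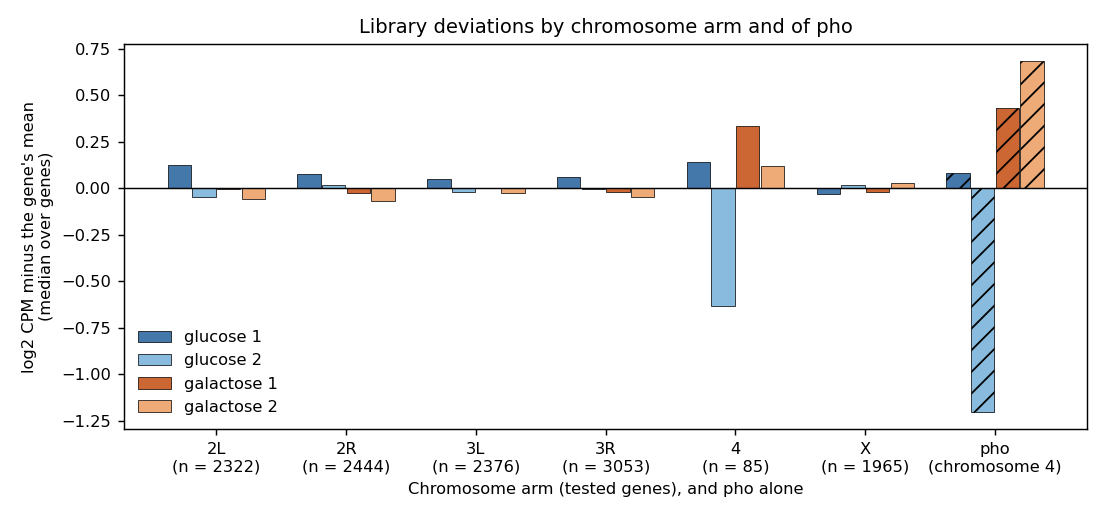
Deviation of log2 CPM in each library from a gene's mean over the 4 libraries: the median over tested genes of each chromosome arm (plain bars, gene numbers under each arm) and the value of pho alone (hatched bars). Chromosome 4 and pho are low in glucose replicate 2, at -0.63 and -1.20, while the other arms stay between -0.07 and 0.13.

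The paralog of pho, phol, which binds the same elements, is on another chromosome and did not share that low library. It was at 58.2 and 81.0 CPM on glucose and 89.7 and 138.4 CPM on galactose. The CPM ratio of pho to phol was 0.716 in glucose replicate 1 and 0.210 in glucose replicate 2, and 0.592 and 0.456 in the galactose libraries, so the ratios of the sugars overlapped.

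Scaled by exon length, the 10 transcripts spanned a wide range of levels. Caf1-55 was highest in every library, at 73.6 ± 8.63 CPM per kilobase with glucose and 94.1 ± 3.80 with galactose (SD, n = 2). Pcl (17.97 ± 3.42 and 32.7 ± 8.63), esc (19.9 ± 7.31 and 28.9 ± 9.72) and Su(z)12 (19.7 ± 6.43 and 29.1 ± 9.62) followed and did not differ from each other beyond their spread. Next came pho (12.3 ± 7.32 and 24.4 ± 2.98), Jarid2 (13.8 ± 7.10 and 19.5 ± 7.41), E(z) (13.04 ± 2.45 and 16.5 ± 1.69), Utx (9.0 ± 0.54 and 14.7 ± 3.21) and Pc (8.57 ± 3.01 and 12.8 ± 5.45), neighbours whose ranges over the 4 libraries overlapped. At the bottom, escl stood at 5.05 ± 2.78 and 5.98 ± 1.90 CPM per kilobase and was the lowest of the 10 in every library.

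**Figure D3:**
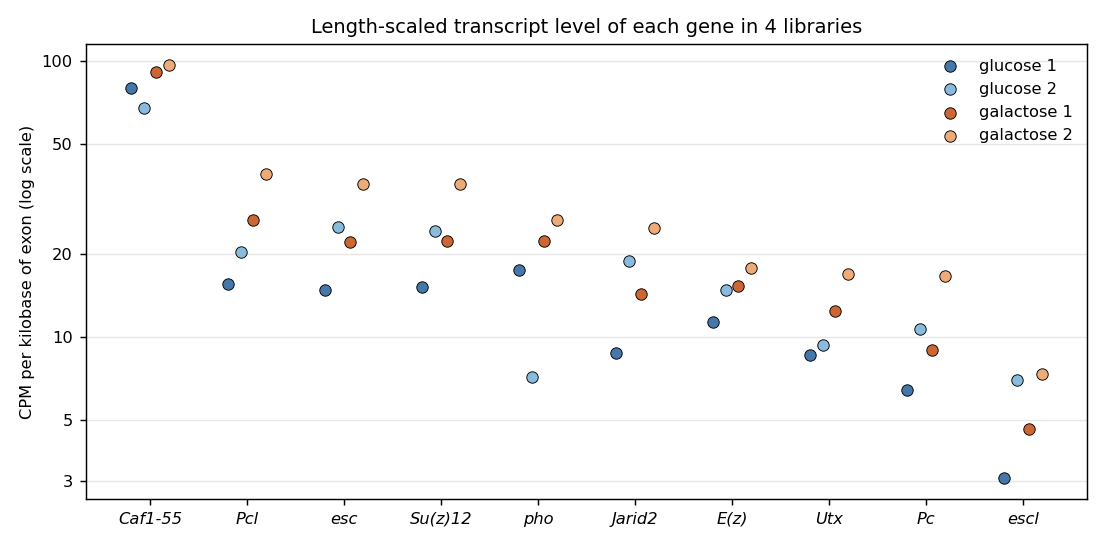
Level of each gene in CPM per kilobase of exon (log axis), ordered by the mean of the 4 libraries, 1 point per library. Caf1-55 lies between 67.5 and 96.8, escl between 3.08 and 7.33, and esc and Su(z)12 lie at nearly the same height in each library.

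Ratios within a library do not depend on a scaling factor common to its genes, though offsets that vary with transcript length can change them. The core subunit genes esc and Su(z)12 kept a nearly fixed proportion: the esc level per kilobase was 0.973 and 1.03 times that of Su(z)12 on glucose and 0.989 and 0.997 times on galactose, a pair picked after its values were seen. The catalytic gene did not keep such a proportion to Su(z)12. E(z) per kilobase was 0.744 and 0.608 times Su(z)12 on glucose and 0.687 and 0.493 times on galactose. Pcl per kilobase was 1.38 times E(z) in both glucose libraries and 1.74 and 2.19 times in the galactose libraries, also picked after the values were seen. For writer against eraser, the CPM ratio of E(z) to Utx was 0.791 and 0.950 on glucose and 0.743 and 0.630 on galactose. Both galactose libraries were lower, by 0.34 on the log2 scale on average (means -0.55 ± 0.17 and -0.21 ± 0.19, SD, n = 2). A two-sided exact permutation test gave p = 0.333, the smallest that this test can give for 2 libraries against 2, so it could not reach 0.05. With the offset for transcript length described below, the log2 difference was -0.23.

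The order of the libraries did not follow the sugar alone. Galactose replicate 2 was the highest library for 10 of 10 genes and glucose replicate 1 the lowest for 8 of 10, where pho and Caf1-55 were lowest in glucose replicate 2. Over all genes tested, 29.4% were highest in galactose replicate 2 and 26.96% lowest in glucose replicate 1, and 19.1% were both. The median deviation of the 10 genes was -0.62 (log2) in glucose replicate 1 and 0.62 in galactose replicate 2, but 0.04 in glucose replicate 2 and 0.003 in galactose replicate 1, so the middle pair did not separate by sugar. Without galactose replicate 2 the median log2 fold change of the 10 genes was 0.21 and without glucose replicate 1 it was 0.26, while leaving out galactose replicate 1 gave 0.78 and leaving out glucose replicate 2 gave 0.95. In the first 2 of these fits escl had a lower mean on galactose, with log2 values of -0.12 and -0.23, and the other 9 genes kept a higher mean.

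**Figure D4:**
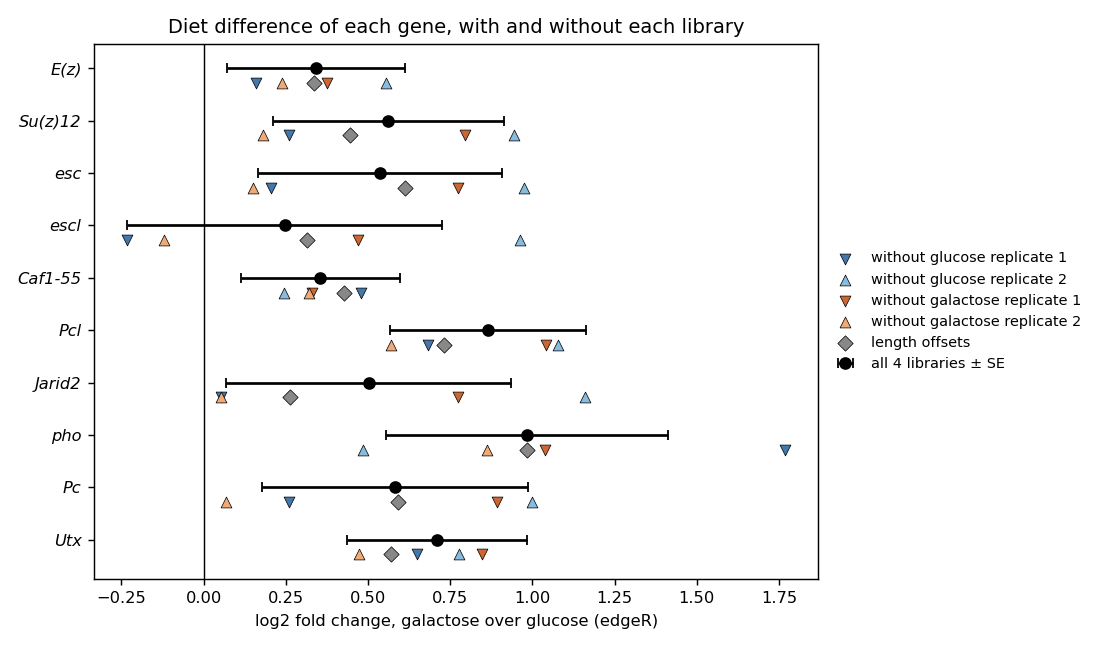
Log2 fold change of each gene, galactose over glucose, from edgeR with all 4 libraries (black circles, bars ± SE), without each library in turn (triangles) and with offsets for transcript length (diamonds). Estimates without glucose replicate 1 or galactose replicate 2 lie nearest 0 for most genes, those without glucose replicate 2 farthest, and pho without glucose replicate 1 stands apart at 1.77.

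By their median deviation, female germline markers had the same order of libraries, from glucose replicate 1 up through galactose replicate 1 and glucose replicate 2 to galactose replicate 2. The middle libraries were nearly level, at 0.01 (log2) in galactose replicate 1 and 0.02 in glucose replicate 2, so their order carries little weight. Of the lists described below, the partners of Utx, the genes of acetylation and antagonists and the other Caf1-55 complexes had that order too. Recruiters and the PRC1 and PR-DUB list had the middle libraries exchanged. The 14 matched markers summed to 1840 and 3513 CPM on glucose and 3026 and 5330 CPM on galactose. The largest part in every library was CycB, at 659.1 and 1407 CPM on glucose and 1149 and 2211 on galactose. Another, osk, was at 138.1 and 629.6 and at 316.3 and 836.2. For osk 84.1% of the exon length overlaps other genes, which leaves its count uncertain. CycB and osk were chosen after their values were seen. Of the 14 markers 13 had a higher mean on galactose, with a median log2 fold change of 0.59. That median was between 0.22 without glucose replicate 1 and 0.86 without galactose replicate 1. None was at 0 in any library. AGO3 of the piRNA pathway was at 56.97 and 23.06 CPM on glucose and 87.95 and 99.8 on galactose, and the transcription factor gene ovo at 114.0 and 131.6 and at 185.5 and 266.6. A further 2 markers, spn-E and pgc, had log2 fold changes of 0.69 and 0.89. For pgc 46.9% of the exon length overlaps other genes, which leaves its count uncertain. AGO3 and pgc were lowest in glucose replicate 2, and ovo and spn-E in glucose replicate 1. AGO3, ovo, spn-E and pgc were named because they had the smallest unadjusted p of the list. By edgeR 0 of the 14 passed. Without glucose replicate 1, where glucose replicate 2 stands alone for its sugar, the log2 fold change of AGO3 was 2.02. The median deviation of the 10 genes minus that of the germline markers was -0.14 (log2) and 0.02 in the glucose libraries and -0.01 and -0.05 in the galactose libraries. Of the other marker lists, muscle markers summed to between 5492 and 7358 CPM on glucose and between 3611 and 4763 on galactose. Egg shell and yolk genes summed to between 31161 and 34111 and between 29737 and 30702. Most of that sum came from the yolk genes, whose log2 fold changes were between -0.42 and -0.34. Of the whole list 6 of 10 genes had a higher mean on galactose, with a median log2 fold change of 0.08. Testis markers summed to 556.0 and 159.5 CPM on glucose and 294.4 and 249.0 on galactose, with Mst84Da, 75.1% of whose exon length overlaps other genes, counted at 0 in all libraries, and neuronal markers to between 133.8 and 209.3 and between 168.9 and 255.1. The part of these tissue differences in the results for the 10 genes was not tested.

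Transcript length also moved with the fold changes. Over all genes tested, the median log2 fold change was -0.29 among those with up to 946 exonic bases and 0.22 among those with 3601 or more, the ends of 5 classes of nearly equal size. Su(z)12, Pcl, Jarid2 and Utx were in the longest class. E(z), Pc and pho lay in the class from 2208 to 3600 bases, with a median of 0.05, and esc, escl and Caf1-55 in that from 1496 to 2205 bases, with a median of -0.08. With an offset for length in each library, the median of the 10 genes was 0.51 beside 0.002 over all genes. Pcl was then at 0.73, Utx at 0.57, Jarid2 at 0.26 and pho at 0.98, and 0 of the 10 passed.

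The further machinery of this mark was described with lists of genes. With all 4 libraries, none of these had a member past edgeR's threshold. Unless marked as chosen after their values were seen, genes given with values had the smallest unadjusted p of their list. Up to 4 were taken per list, at a mean of at least 5 CPM. A p-value printed for such a gene therefore also served to select it. PRC1 and PR-DUB compact chromatin and write or remove ubiquitin on histone H2A. Of 11 genes of these complexes and of related Polycomb factors, 10 had a higher mean on galactose, with a median log2 fold change of 0.41. With the offset for length that median was 0.30. For corto, whose product binds Polycomb proteins, CPM was 99.3 and 80.3 on glucose and 132.3 and 202.6 on galactose (log2 0.90 ± 0.30, SE; edgeR adjusted p = 0.582). Scm, which links PRC1 to other Polycomb complexes, was at 55.6 and 69.6 CPM and at 75.6 and 126.2, and the O-GlcNAc transferase gene sxc at 79.3 and 43.9 and at 111.7 and 94.5. Asx, of the deubiquitinase, had a log2 fold change of 0.52. The catalytic ubiquitin ligase gene Sce, chosen after its values were seen, was at 28.6 and 36.1 CPM and at 31.7 and 46.8, so its sugars overlapped.

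All 7 tested recruiters that bind or act at PREs had a higher mean on galactose, with a median of 0.48. With the offset for length that median was 0.31. The BTB protein gene psq was at 134.3 and 99.1 CPM on glucose and 183.6 and 235.3 on galactose (log2 0.84 ± 0.28, SE; edgeR adjusted p = 0.582). Of the others, phol had a log2 fold change of 0.71, Sfmbt, the partner of Pho, 0.61, and the zinc-finger gene cg 0.48.

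Partners of Utx in its COMPASS-like complex had unlike values. Ncoa6, a subunit particular to this form of the complex, was at 45.5 and 48.1 CPM on glucose and 73.3 and 99.5 on galactose (log2 0.89 ± 0.27, SE; edgeR unadjusted p = 0.0142, adjusted p = 0.582), and Ptip at 25.1 and 39.04 and at 46.2 and 68.9 (log2 0.84 ± 0.34). The methyltransferase gene trr of the same complex, chosen after its values were seen, was at 31.7 and 83.9 CPM and at 43.5 and 74.7, a log2 fold change of 0.03. Of the subunits shared by all COMPASS complexes, wds had a log2 fold change of 0.38 and Dpy-30L1 of 0.16. The 8 tested partners had a median of 0.14 (0.22 with the offset for length), with 7 higher.

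Genes that oppose Polycomb silencing were also higher on average. All 8, among them the H3K27 acetyltransferase gene nej, had a higher mean on galactose, with a median log2 fold change of 0.62. With the offset for length that median was 0.34. The bromodomain gene fs(1)h was at 122.4 and 159.4 CPM on glucose and 203.9 and 341.1 on galactose, and trx, a methyltransferase of the Trithorax group, at 29.5 and 27.9 and at 52.7 and 41.5. The remodeller genes kis and osa had log2 fold changes of 0.71 and 0.63 (0.38 and 0.36 with the offset for length). For kis the value was 1.34 without glucose replicate 2 and 0.28 without glucose replicate 1. Of 13 genes in other complexes that contain Caf1-55, 12 had a higher mean and the median was 0.56 (0.49 with the offset for length). The nucleosome remodelling gene E(bx) was at 117.4 and 69.05 CPM on glucose and 195.4 and 211.0 on galactose (log2 1.12 ± 0.32, SE; edgeR adjusted p = 0.582). Without glucose replicate 1, where glucose replicate 2 stands alone for its sugar, the log2 fold change of E(bx) was 1.56. The chromatin assembly gene Caf1-180 had a log2 fold change of 0.84, and MTA1-like and HDAC1, of the deacetylase complex, 0.66 and 0.54.

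Classical Polycomb targets had values on both sides of 0. Of 16 tested target genes, homeotic and segmentation genes among them, 6 had a higher mean on galactose. The median log2 fold change was -0.04, close to that of all genes tested, with a range from -0.997 (pnr) to 0.66 (Antp). With the offset for length the median was -0.12. Antp was at 4.52 and 1.99 CPM on glucose and 6.02 and 4.31 on galactose, so its sugars overlapped. For Antp 50.1% of the exon length overlaps other genes, which leaves its count uncertain. The galactose values of pnr were both under its glucose values, at 2.18 and 2.83 CPM on glucose and 1.29 and 1.21 on galactose (edgeR unadjusted p = 0.0544), as were those of inv, with a log2 fold change of -0.63. These 3 genes were chosen after their values were seen. Levels of the targets in whole flies were low, with 10 of the 16 under a mean of 5 CPM. The homeotic genes of the abdomen, abd-A and Abd-B, were at 9.35 and 7.60 CPM on glucose and 11.8 and 7.50 on galactose, and at 6.55 and 6.39 and at 8.30 and 6.52. The homeobox gene cad, which is also expressed in the gut and deposited in eggs, was at 87.1 and 197.3 CPM and at 126.3 and 256.0. Its log2 fold change was 0.43, and its sugars overlapped. The gene tsh was at 9.31 and 11.02 CPM and at 10.1 and 8.94. Histone H3.3, a variant that carries the same lysine, has a pair of genes: His3.3B was at 486.2 and 472.2 CPM on glucose and 517.0 and 529.3 on galactose, and His3.3A at 171.7 and 166.7 and at 148.0 and 141.0, where 16.8% of the exon length overlaps other genes.

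**Figure D5:**
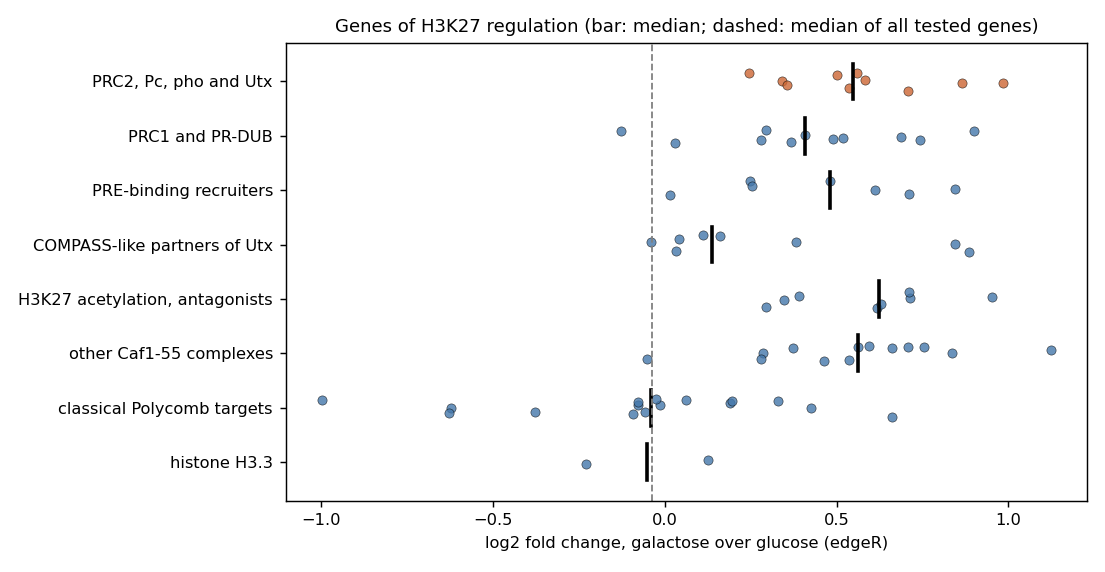
Log2 fold change, galactose over glucose, of the 10 genes (orange) and of the tested genes in 7 lists around H3K27 methylation (blue), 1 point per gene. Black bars are medians, from 0.62 for acetylation and antagonists to -0.05 for histone H3.3, and the dashed line is the median of all genes tested, -0.04.

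By the root-mean-square difference of 4 centred log2 CPM values, the genes most like E(z) among 9420 candidates were XNP, CG15877 and Csk, with differences of 0.014, 0.018 and 0.020. XNP, an ATP-dependent remodeller of the ATRX family, was at 96.5 and 127.2 CPM on glucose and 129.0 and 152.7 on galactose. Those most like Utx were CG43759, dgrn and Socs16D, with differences of 0.017, 0.018 and 0.021. Over so few libraries such likeness is common: 414 genes came within 0.1 of E(z) and 180 within 0.1 of Utx.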

How the data were processed

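The authors deposited a table of raw, whole-number read counts for each gene in each library. The submitters' processing notes name build BDGP6 and the tools TopHat2 2.0.12, Bowtie2 2.2.3, DESeq2 and HTSeq 0.6.1. Whether counting used strand is not stated in the sources read here. In the authors' deposited comparison, the signal columns are mean normalized counts per sugar, with a log2 fold change of glucose over galactose and a raw and adjusted p-value; its sign was turned here. Names came from the reference table (17252 identifiers matched) and coordinates and exonic lengths (union of exons) from the BDGP6.54 annotation.

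The members and lists were chosen with earlier results of these data known. Counts were tested with edgeR 4.0.16 (R 4.3.3): TMM, filterByExpr (minimum count 10, minimum total 15), quasi-likelihood F test, Benjamini-Hochberg adjustment over all 12529 genes. The SE is the log2 fold change divided by the root of F. CPM are TMM-normalized. Lists matched 121 of 129 genes and are described by counts and medians without a set test. Named list genes were the 4 with the smallest p at a mean of at least 5 CPM; of the marker lists, those of the germline only are named. Candidates for likeness also had a mean of at least 5 CPM. Alternatives were DESeq2 1.42.0, limma-voom (limma 3.58.1), other scalings and filters, a replicate block, length offsets (lowess span 0.5; lengths for 97.99% of tested genes) and each library left out. The script was tested on simulated data.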

Additional observations from a re-analysis of the deposited data

How the results depend on the processing

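No member passed the threshold under other scalings or filters, DESeq2, limma-voom, the replicate block or length offsets, and all 10 kept a higher mean on galactose under each of these. DESeq2 called 88 of 12844 genes in all (0.685%), none of them a member. Leaving out each library in turn gave between 0 and 549 genes called by edgeR (549 without glucose replicate 1, 147 without glucose replicate 2), between 0 and 1 members called (pho, without glucose replicate 1), and between 5 and 10 members with no overlap between sugars, where 29.3% to 39.5% of all tested genes had all galactose libraries higher. The log2 fold change ranged from -0.23 to 0.96 for escl, 0.05 to 1.16 for Jarid2, 0.07 to 1.00 for Pc and 0.15 to 0.98 for esc. It ranged from 0.18 to 0.94 for Su(z)12, 0.16 to 0.55 for E(z), 0.25 to 0.48 for Caf1-55 and 0.57 to 1.08 for Pcl. For Utx the range was 0.47 to 0.85, and for pho 0.48 to 1.77. Among Polycomb target genes it was -0.17 to 1.14 for cad, -0.25 to 0.040 for tsh, -0.057 to 0.37 for Abd-B and -0.24 to 0.49 for abd-A. Abd-B was at -0.10 with length offsets. List medians ranged from 0.13 to 1.11 for genes of acetylation and antagonists, 0.12 to 0.70 for PRC1 and PR-DUB, 0.31 to 0.89 for recruiters, 0.15 to 0.87 for other Caf1-55 complexes, 0.03 to 0.50 for partners of Utx, -0.25 to 0.03 for Polycomb targets, 0.22 to 0.86 for the germline, -0.46 to 0.52 for testis and -0.14 to 0.74 for neurons. Where 1 library is left, it is assumed to vary like the other sugar. The cause of these shifts was not tested. With upper-quartile scaling the median over all tested genes shifted by -0.11 (log2), and the members' median was 0.44. The E(z) to Utx difference was between -0.47 and -0.21 without each library, and -0.23 with length offsets. Same-numbered libraries of the 2 sugars deviated together across genes with r = 0.225, over only 2 numbers, and the labels do not say that a number pairs libraries; with the replicate block edgeR called 0 genes and the members' median was 0.55. The counts of members by direction and overlap, and the median without pho (0.54, and between 0.18 and 0.96 without each library), were added after seeing the data. The 2 libraries per sugar limit the precision of every value.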

Other observations

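Beyond pho, the low values of chromosome 4 genes in glucose replicate 2 were of unequal size. The log2 CPM of pho there differed from that of its next lowest library by -1.29. Of the 85 tested genes of the chromosome, 6 had a gap at least as large, pho itself included. Over all 12529 tested genes, pho again included, 137 did (1.09%). Without glucose replicate 1, edgeR called 17 of the 85 chromosome 4 genes higher on galactose (20%), beside 199 of 12742 genes over the whole genome (1.56%). The median log2 fold change of the chromosome with all 4 libraries was 0.46, while those of the other arms lay between -0.09 and 0.04. These values were looked at after that of pho was seen, and no label records a difference between the glucose libraries.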
